A study of Mus musculus with 48 samples.

Results

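Progenitor cultures of clonal mouse ER-Hoxb8 cells were compared according to their level of Cpa3, the transcript of mast cell carboxypeptidase A. Within clones 1 to 13 and, separately, within clones 15 to 26, the 4 progenitor libraries with the highest Cpa3 TPM were called high and the 4 with the lowest were called low, so the members were chosen by measured Cpa3 TPM. This gave 8 high and 8 low libraries, 16 of the 24 progenitor libraries and of the 48 libraries in the series. Another 6 progenitor libraries lay between the groups and are called middle, and the progenitor libraries of clones 21 and 24 were left out of the ranking. The high group held clones 2, 5, 6 and 7 of the first set and 17, 18, 19 and 22 of the second. The low group held clones 3, 10, 11 and 13 of the first set and 15, 20, 23 and 26 of the second. Because Cpa3 chose the groups, its level in progenitors is described and not tested.

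ER-Hoxb8 cells are myeloid progenitors kept dividing by the homeobox factor Hoxb8, which is joined to a hormone-binding part of the estrogen receptor. RNA was sequenced from 24 clones of mouse bone marrow origin, each once as a progenitor culture, named GMP (granulocyte-monocyte progenitor) in the labels and "Plus" in the titles, and once as a monocytic culture, named "Minus". High and low libraries share the cell type, RPMI medium with serum, antibiotics and stem cell factor (SCF, the ligand of Kit), and the RNA and library kits. The labels do not state mouse strain, sex or age, the number of animals or what plus and minus stand for. Each library is 1 clone, so a difference between groups is a difference between clones. The p-values measure the spread between clones, and nothing says how many animals they came from.

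Mast cells and basophils are granule-bearing cells that take up IgE through the receptor FceRI and release histamine, proteases and lipid mediators when it is crosslinked. Both arise in bone marrow from progenitors that also make other myeloid cells, and the factor Gata2 is needed for both. Cpa3 is made early along that route, together with a set of serine proteases that are bound in granules to serglycin and heparin.

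Cpa3 lies on chromosome 3 of mouse build mm10, from 20215620 to 20242181 on the minus strand (protein-coding). TPM are transcript abundances corrected for length and scaled to the same total in each library, so they keep no sequencing depth. High libraries held 1846 ± 332 TPM (SD, n = 8), low libraries 815 ± 337 TPM (n = 8) and middle libraries 1428 ± 272 TPM (n = 6). In clones 1 to 13 the high clones 6, 7, 2 and 5 had 2377, 2187, 1947 and 1897 TPM, and the low clones 3, 11, 10 and 13 had 1201, 1047, 1029 and 464 TPM. In clones 15 to 26 the high clones 17, 22, 19 and 18 had 1754, 1650, 1629 and 1329 TPM, and the low clones 23, 15, 26 and 20 had 1041, 902, 575 and 262 TPM. Both groups thus had a wide range, from 262 to 1201 TPM in low and from 1329 to 2377 TPM in high libraries. Clones 13 and 20 were the lowest of their sets. The boundary was narrow in the first set. Clone 8, the highest middle clone, had 1891 TPM, just under clone 5, and clone 4, the lowest middle clone, had 1230 TPM, just above clone 3. Of clones 15 to 26 the single middle clone 16 had 1149 TPM.

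**Figure D1:**
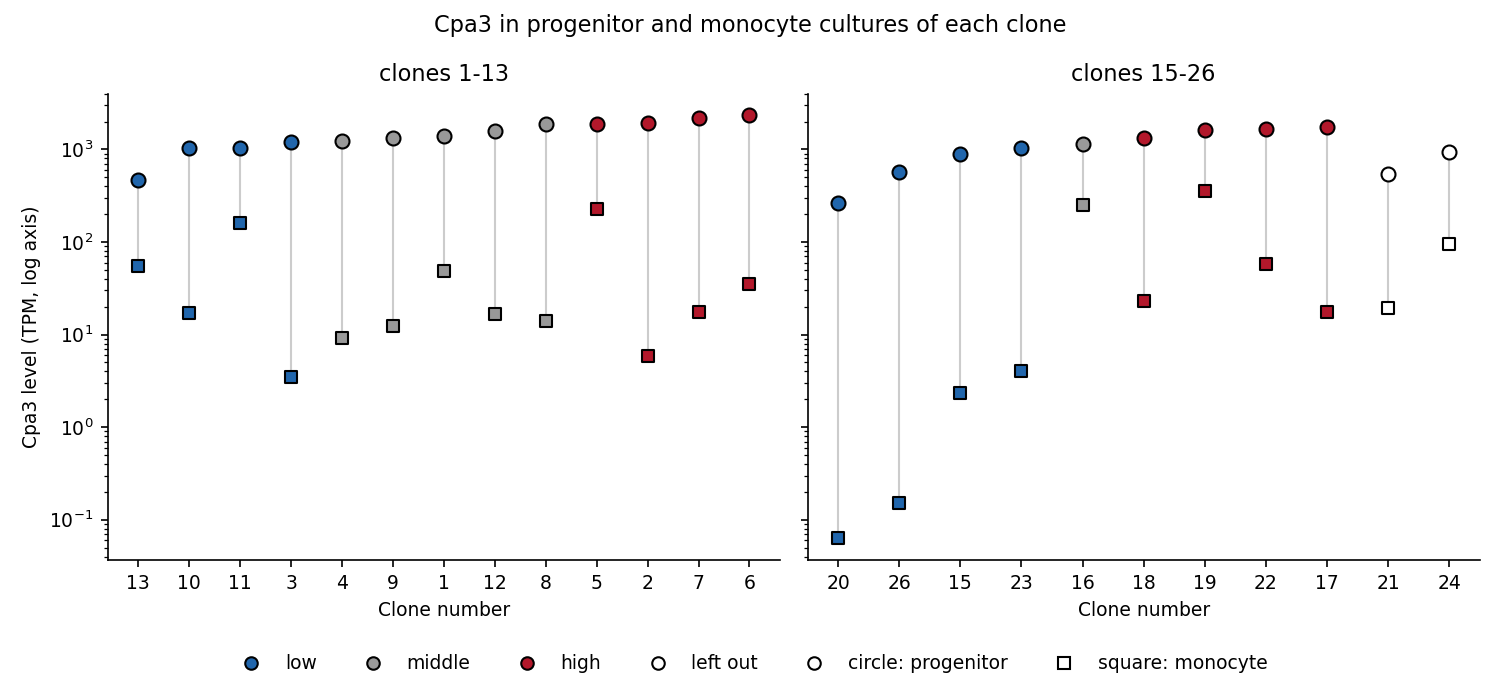
Cpa3 in every clone (TPM, log axis), circles for the progenitor culture and squares for the monocyte culture, coloured by the group of the progenitor culture, left for clones 1 to 13 and right for clones 15 to 26. Progenitor levels ran from 262 to 2377 TPM over the ranked clones, and in the right panel the 4 high clones lie above the 4 low clones in monocytes too, although the middle clone 16, at 253 TPM, lies above 3 of the high ones.

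The cultures held transcripts of myeloid progenitors and part of the mast cell and basophil markers. Cd34, a surface protein of progenitors, stood at 449 ± 138 TPM in high libraries and 406 TPM on average in low libraries, and Kit, the SCF receptor, at 83.0 ± 32.9 and 63.1 ± 34.2 TPM (SD, n = 8 each). Of 14 mast cell and basophil markers other than Cpa3, Fcer1a, the IgE-binding chain of FceRI, the mast cell proteases Mcpt4 and Tpsab1, and the mast cell factor Mitf were under 1 TPM in all 16 libraries, and 10 of the 14 had a mean of at least 1 TPM in high and 8 in low libraries. Markers of dendritic cells summed to at most 1.78 TPM in any of them. The summed mast cell and basophil markers ran from 346 to 1186 TPM (median 1059) in high and from 161 to 454 TPM (median 277) in low libraries. Eosinophil markers ran from 0.666 to 18.4 TPM in high and from 0.476 to 3.0 TPM in low libraries. Erythroid and megakaryocyte markers ran from 88.1 to 406 TPM against 52.4 to 252 TPM, and neutrophil markers from 781 to 2596 TPM against 1337 to 14492 TPM, with medians of 1759 and 1837 TPM. In bulk RNA, fewer cells of a type and less RNA per cell cannot be told apart.

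Library measures differed by less than the spread between clones. Mitochondrial transcripts took 8.13% ± 3.90 of TPM in high and 8.94% ± 3.42 in low libraries (SD, n = 8 each). The number of genes with at least 1 TPM was 10459 ± 541 against 10231 ± 559. Over 7 such measures, Hoxb8 among them, the adjusted p ran from 0.446 to 0.538 (exact permutation of groups within sets, 4900 permutations, two-sided). Depth was unknown.

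Promoter windows are shown for Cpa3, which chose the groups, and for 3 further mast cell or basophil genes. These 3 had higher means in the high group, and none passed over all genes. All 4 were picked because each window holds the GATA word AGATAA, or its reverse complement TTATCT, within 100 bases of the annotated start. Gata factors bind this motif. The sequences are from RefSeq (build GRCm38.p6), 5′ to 3′ on the strand of the gene, ending at the base before the start, with the word in capitals. Their positions are chr3:20242182-20242281 (minus strand) for Cpa3, chr19:11623720-11623819 (minus) for Ms4a2, chr17:25298294-25298393 (plus) for Prss34 and chr16:44943578-44943677 (plus) for Cd200r3.
Cpa3: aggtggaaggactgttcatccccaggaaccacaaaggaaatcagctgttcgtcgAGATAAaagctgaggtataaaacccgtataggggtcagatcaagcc
Ms4a2: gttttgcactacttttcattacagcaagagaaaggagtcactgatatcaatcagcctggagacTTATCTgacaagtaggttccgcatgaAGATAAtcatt
Prss34: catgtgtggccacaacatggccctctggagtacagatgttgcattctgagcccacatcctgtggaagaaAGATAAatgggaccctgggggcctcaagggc
Cd200r3: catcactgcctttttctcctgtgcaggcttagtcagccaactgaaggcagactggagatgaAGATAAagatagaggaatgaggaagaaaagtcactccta
The word begins 46 bases before the start in Cpa3, 31 in Prss34 and 39 in Cd200r3, and Ms4a2 holds it at 37 and 11 bases. These were the only 4 of 52 matched genes, out of 62 (Cpa3 and the measured mast cell and basophil genes), with the word in those 100 bases, a share of 7.69%, against 1.97% of the matched genes tested in progenitors and 4.19% of all 27025 genes with a RefSeq window. Over 250 bases the shares were 17.3%, 7.01% and 11.4%. Of 129 matched genes that rose with Cpa3 in the slope described further on, 2 held the word in 100 bases (1.55%). Both strands were searched, and a match is a description of the letters, not a bound site.

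The main comparison asked which other transcripts differ between progenitors with high and low Cpa3. Among the 35 genes with an adjusted p under 0.10, chosen for mention after their values were seen, mean levels were higher in the high group for Ndst2, the sulfotransferase of heparin synthesis (59.0 ± 44.5 against 13.3 ± 3.90 TPM), Gata2 (42.6 ± 9.58 against 20.2 ± 7.70 TPM), Ms4a2, the beta chain of FceRI (30.3 ± 22.5 against 4.91 ± 4.70 TPM), Il1rap, the shared chain of the IL-1 and IL-33 receptors (4.95 ± 2.10 against 1.33 ± 0.539 TPM), and Gata1, a factor of erythroid, megakaryocyte and mast cells (2.98 ± 2.68 against 0.664 ± 0.688 TPM; SD, n = 8 each). No single gene passed the correction over all genes. With limma on log2(TPM + 1) and set as a covariate, 0 of 10679 genes reached an adjusted p under 0.05 in either direction (0%), and the smallest was 0.0738. At an unadjusted p under 0.05 there were 835 genes higher in high libraries (7.82%) and 58 lower (0.543%), so the difference leaned to higher values. The median gene was higher by 0.13 log2 units, and by 0.11 after rescaling to the genes that are not mitochondrial, Gm or pseudogene entries. All of the 35 genes were higher. In 23 genes (0.215%) every high library lay above every low library of its set, in both sets, and no gene did the opposite. Apart from Gata1, Ndst2 and Il1rl1, these included Cyp11a1, a steroid-making enzyme, Poln, Psd3, Fyb, Mfge8 and Sphk1, chosen for mention after their values were seen.

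The count of 0 depended on some single clones. Without clone 22, 13 genes passed, without clone 15, 7, without clone 7, 6, and without clone 19, 2, all higher. Ndst2 passed in each of these 4 fits (lowest adjusted p 0.00889, without clone 22), Gata2 without clone 15 (0.0491) or 7 (0.0426), Gata1 and Ms4a2 without clone 22 (both 0.0497), and Slc18a2, the vesicle transporter of monoamines, without clone 15 (0.0362). Leaving out any other high or low clone gave 0 genes in limma. The smallest adjusted p then ran from 0.0506 (without clone 26) to 0.179 (without clone 6), against 0.0738 with all clones.

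Among the mast cell and basophil lists, which hold 61 measured genes, 25 were higher at an unadjusted p under 0.05 (41.0%, against 7.82% of all genes) and none was lower. Their median difference was 0.30 against 0.13 for all genes. Positive differences were found in 46 of 61, a smaller share than among all genes (8673 of 10679). Without clone 19, 26 of 61 were higher at an unadjusted p under 0.05, against 11.6% of all genes. Of the lists' genes, 21 in all did not reach the mean of 1 TPM needed for testing, among them Fcer1a, Mcpt4, Tpsab1, Il4, Il13 and Mitf. Some tested genes reached it only through high or middle libraries, and the shares above include them. Low libraries had means of 0.104 TPM for Tpsb2, 0.145 for Cyp11a1, 0.281 for Tpsg1 and 0.664 for Gata1. Outside these lists, genes given with values because of their unadjusted p were chosen after their values were seen. The lists were written from general knowledge with earlier results of these data known, so their counts are descriptions. None of these genes passed over all genes, so the values below are given with the group spread.

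**Figure D2:**
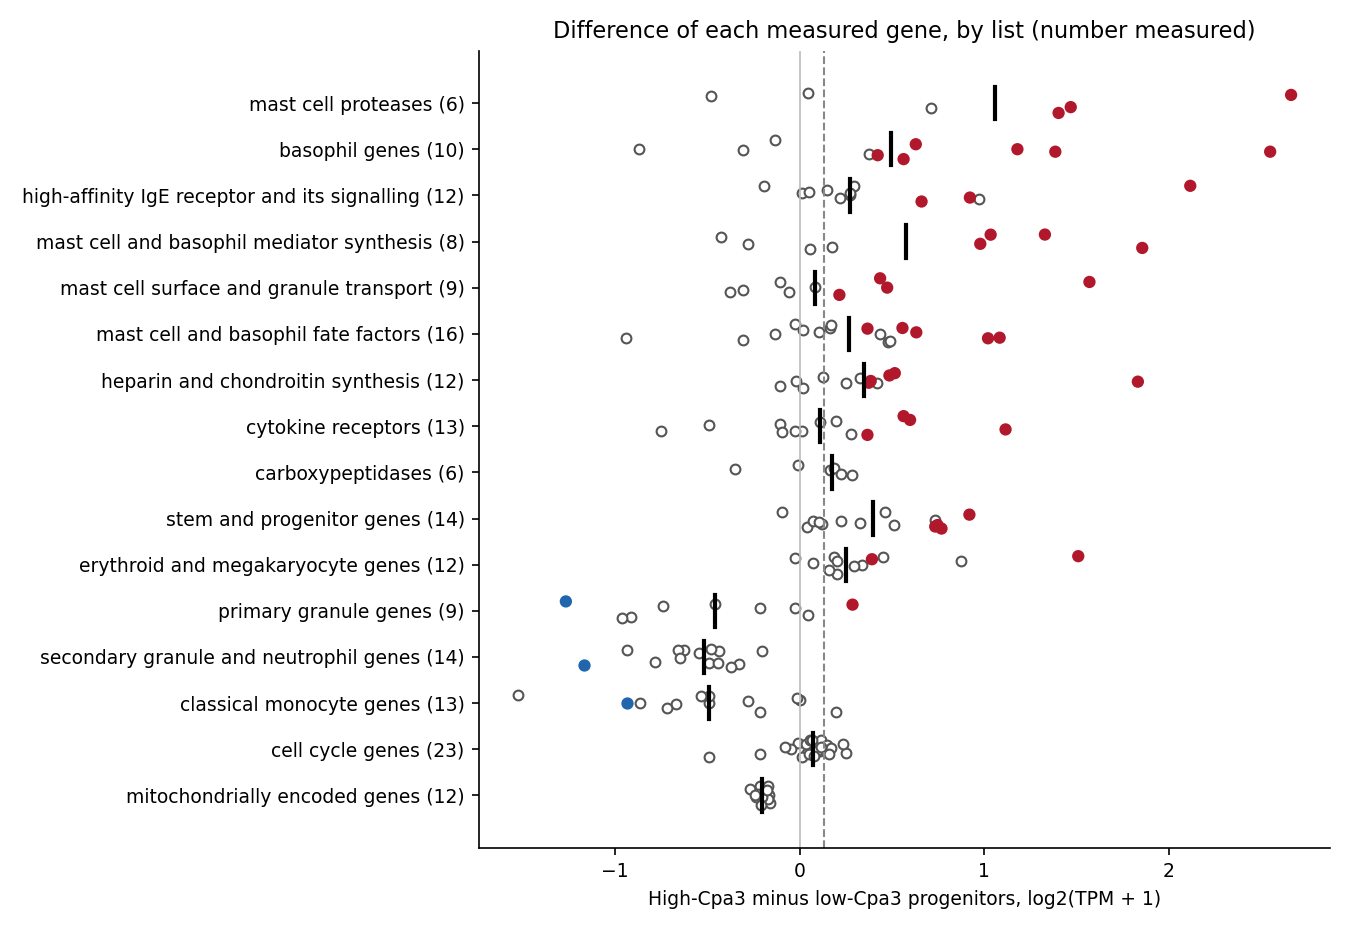
Difference of each measured gene between high and low progenitors (x axis, log2(TPM + 1)) by list, filled where the unadjusted p was under 0.05, with a black bar at each list's median and a dashed line at the median of all genes (0.13). Filled points lie to the right in the mast cell, basophil and heparin lists, and the 3 neutrophil and monocyte lists have medians from -0.52 to -0.46.

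Fate factors came first in the order of the lists. Of 16 measured, 5 were higher at an unadjusted p under 0.05 (Gata2, Gata1, Tal1, Stat5a and Stat5b) and none lower. Gata2, on chromosome 6 from 88193891 to 88207032, stood at 44.4, 36.8, 48.0 and 21.8 TPM in the high clones 2, 5, 6 and 7 and at 24.9, 17.1, 14.3 and 10.1 TPM in the low clones 3, 10, 11 and 13. In the second set the high clones 17, 18, 19 and 22 had 52.4, 49.2, 44.4 and 43.5 TPM and the low clones 15, 20, 23 and 26 had 32.6, 15.9, 28.4 and 18.2 TPM. Only clone 7 lay below a low clone, clone 3, and the second set did not overlap. The difference was 1.08 log2 units (SE 0.20, adjusted p = 0.0741), with 1.15 in the first set and 1.02 in the second. Gata1 was 1.02 higher (SE 0.19, adjusted p = 0.0741). Its levels were set apart by set: 4.39 to 7.38 TPM in the high and 1.06 to 1.67 TPM in the low clones of the first set, but 0.196 to 1.65 and 0.0435 to 0.0504 TPM in the second. Tal1, a partner of the Gata factors, was 0.63 higher (adjusted p = 0.272) and Stat5a, which relays SCF and IL-3 signals, 0.56 higher (adjusted p = 0.272). Lmo2 and Lyl1, partners of Tal1, differed by -0.02 and 0.16. Tfec, a relative of Mitf, had 2.34 ± 3.05 TPM in high and 6.66 TPM on average in low libraries (adjusted p = 0.646).

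The chains of the IgE receptor were measured at very different levels. Ms4a2, on chromosome 19 from 11615523 to 11623719, was 2.12 log2 units higher (SE 0.45, adjusted p = 0.0964), a 6.16-fold ratio of mean TPM. In the first set the high clones 2, 5, 6 and 7 had 46.1, 55.4, 41.9 and 45.6 TPM and the low clones 3, 10, 11 and 13 had 11.1, 7.75, 11.6 and 5.04 TPM. Among clones 15 to 26, clone 19 had 42.3 TPM, while the other high clones 17, 18 and 22 had 1.44, 7.58 and 1.77 TPM and the low clones 15, 20, 23 and 26 had 0.378, 0.780, 1.12 and 1.54 TPM. Every high library thus lay above every low library of the first set, and in the second clone 17 overlapped the low clones. Fcer1g, the gamma chain that other receptors also use, stood at 340 ± 51.5 and 339 ± 67.4 TPM, a difference of 0.01 whose sign turned under several alternatives. Fcer1a was under 1 TPM throughout. Downstream of the receptor, the adaptor Lat was 0.92 higher and the lipase Plcg1 0.66 higher (adjusted p = 0.446 and 0.532). In all, 3 of 12 measured genes of this list were higher at an unadjusted p under 0.05.

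Of 10 measured basophil genes, 7 had positive and 3 negative differences, not a larger positive share than among all genes. Prss34, a serine protease of basophils (chromosome 17 from 25298394 to 25300165), was 2.55 log2 units higher (SE 0.65, adjusted p = 0.202). The 4 high clones of the first set had 135 to 150 TPM and the 4 low ones 7.14 to 43.2 TPM. In the second set clone 19 had 114 TPM, clones 17, 18 and 22 had 17.9, 5.22 and 5.31 TPM, and the low clones ran from 0.149 to 17.8 TPM. Mcpt8, the basophil granule protease (chromosome 14 from 56082166 to 56085273), stood at 347 to 572 TPM in the high and 92.3 to 193 TPM in the low clones of the first set. In the second it reached 523 TPM in clone 19, 51.5 to 84.9 TPM in the other high clones and 39.3 to 72.8 TPM in the low ones. Its difference over both sets was 1.39 (SE 0.37, adjusted p = 0.236). Mcpt1, Mcpt2, Mcpt4 and Mcpt9 were at most 0.332 TPM in any ranked progenitor library, and the division of reads among related protease genes was not examined. Cd200r3, an activating receptor of basophils and mast cells, was 1.18 higher and the tetraspanin Cd63 0.42 higher (856 ± 153 against 631 ± 53.3 TPM, adjusted p = 0.0998). The hepatocyte growth factor Hgf and the IL-3 receptor chain Il3ra were 0.63 and 0.56 higher (adjusted p = 0.57 and 0.48). Together 6 of the 10 were higher at an unadjusted p under 0.05, while Ifitm1, Lilr4b and Cd69 had differences of -0.87, -0.31 and -0.13.

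**Figure D3:**
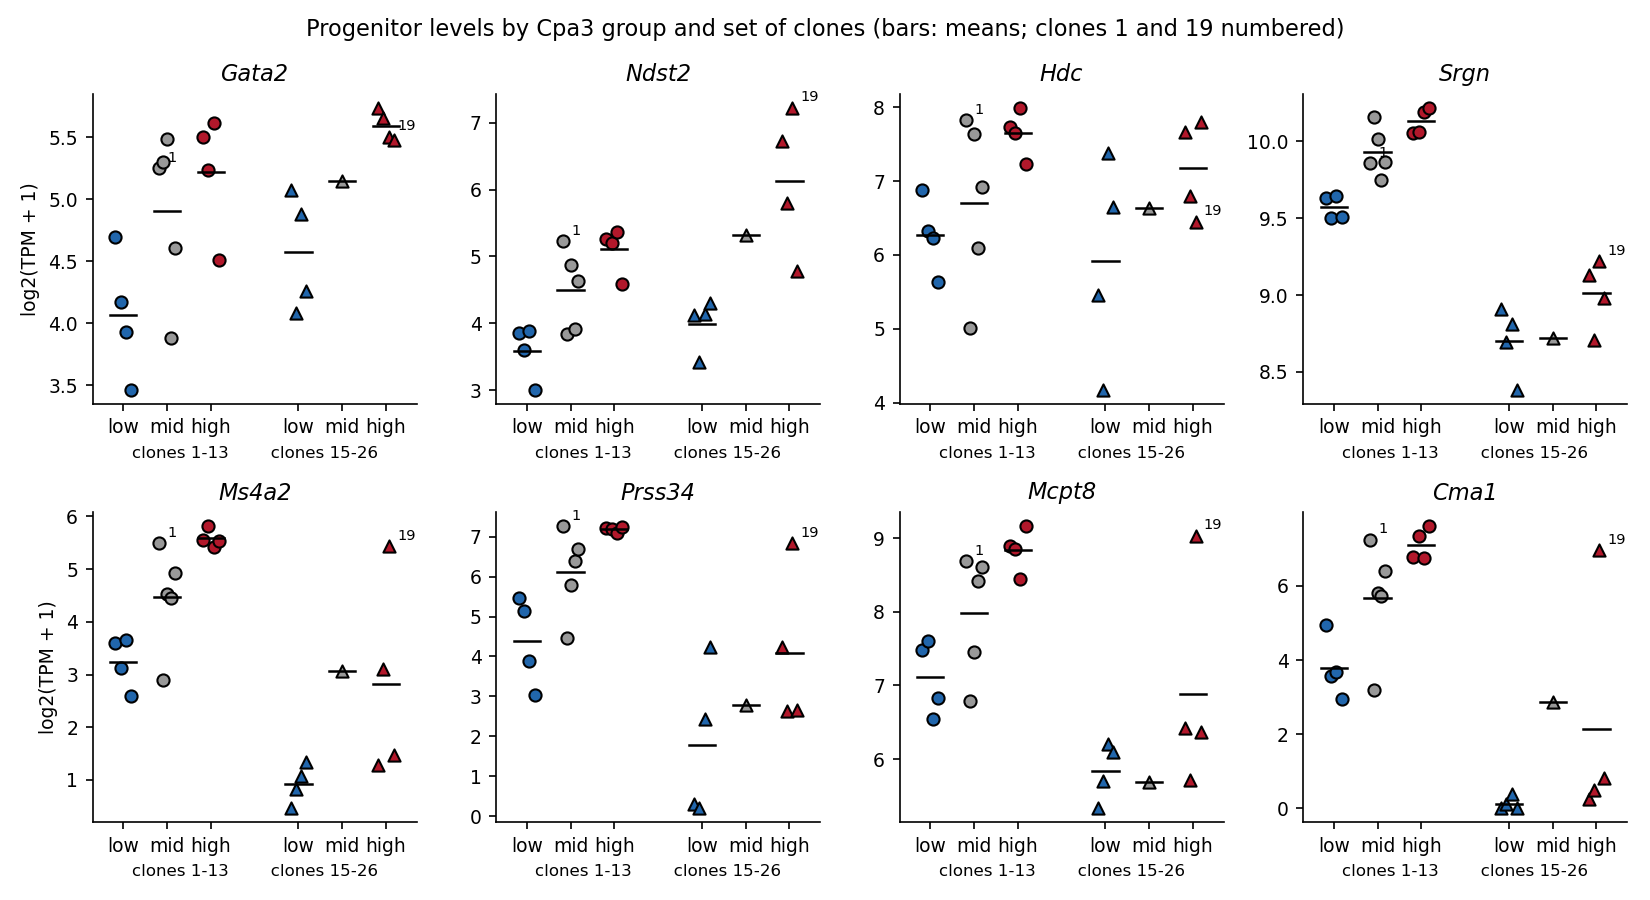
Progenitor level of 8 genes, log2(TPM + 1), in low, middle and high clones of each set, 1 point per clone with a bar at the mean. In Ndst2 the high clones of each set lie above all its low clones, and in Gata2, Hdc and Srgn the groups overlap in 1 set. In Ms4a2, Prss34, Mcpt8 and Cma1, clone 19 is the only high or low clone of 15 to 26 near the high clones of the first set.

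Of 6 measured mast cell proteases, 3 passed in clones 1 to 13 fitted alone (Cma1, Tpsb2 and Tpsg1) and none passed over both sets. Cma1, the chymase (chromosome 14 from 55941451 to 55944675), was 2.66 log2 units higher (SE 0.75, adjusted p = 0.272). High clones 2, 5, 6 and 7 had 108, 161, 106 and 195 TPM and low clones 3, 10, 11 and 13 had 29.9, 10.9, 11.9 and 6.77 TPM. Of clones 15 to 26, clone 19 had 123 TPM and the other 7 high or low clones had under 1 TPM. The tryptases Tpsb2 and Tpsg1 were 1.40 and 1.47 higher (adjusted p = 0.441 and 0.271). Tpsb2 reached 1.59 to 4.34 TPM in the high clones of the first set and 19.8 TPM in clone 19. The related tryptase gene Tpsab1 was at most 0.196 TPM in any ranked progenitor library, and the division of reads between the 2 genes was not examined. Ctsg, cathepsin G, which neutrophil precursors also make, stood at 1568 ± 249 and 1520 ± 233 TPM, a difference of 0.05 that turned to -0.01 when clones 21 and 24 were ranked too. Prss57 differed by -0.48. Over both sets 3 of the 6 were higher at an unadjusted p under 0.05. Tpsb2 and Tpsg1 reached the mean needed for testing only through high or middle libraries.

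The 8 measured genes of mediator synthesis had 6 positive and 2 negative differences, again not a larger positive share than among all genes. Hdc, the enzyme that makes histamine (chromosome 2 from 126593667 to 126619299), stood at 180 ± 58.2 against 80.4 ± 47.0 TPM. In the first set the high clones had 150 to 255 TPM and the low clones 48.6 to 117 TPM. In the second set the high clones 17, 18, 19 and 22 had 203, 111, 86.6 and 222 TPM and the low clones 15, 20, 23 and 26 had 42.8, 17.1, 166 and 99.3 TPM. Clone 19, which led the proteases, was thus the lowest high clone for Hdc. The difference was 1.33 (SE 0.36, adjusted p = 0.261). Slc18a2 was 1.03 higher (adjusted p = 0.101). Alox5, the lipoxygenase that starts leukotriene synthesis, was 1.86 higher (adjusted p = 0.178), while the later leukotriene genes had lower means in high libraries. Its partner Alox5ap had 200 ± 62.6 TPM in high and 243 ± 85.7 TPM in low libraries, Ltc4s, leukotriene C4 synthase, differed by -0.43, and the ratio of mean TPM was 0.962 for Ptgs1 and 1.09 for Hpgds, enzymes of prostaglandin synthesis. Cyp11a1 was 0.98 higher. In total 4 of 8 measured genes of this list were higher at an unadjusted p under 0.05.

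Heparin synthesis and its core protein were represented by Ndst2 and Srgn. Ndst2, on chromosome 14 from 20723730 to 20734562, stood at 37.5, 35.8, 40.3 and 23.2 TPM in the high clones 2, 5, 6 and 7 and at 13.5, 11.1, 13.7 and 7.04 TPM in the low clones 3, 10, 11 and 13. In the second set the high clones 17, 18, 19 and 22 had 105, 54.8, 149 and 26.5 TPM and the low clones 15, 20, 23 and 26 had 16.4, 9.67, 16.5 and 18.7 TPM. No high library overlapped the low ones in either set. Its difference of 1.83 log2 units (SE 0.29, adjusted p = 0.0738) had the smallest p of all genes, and it was 1.78 in the second set without clone 19. Srgn, serglycin, the core protein that carries heparin chains (chromosome 10 from 62493833 to 62527451), was 0.44 higher (SE 0.09, adjusted p = 0.0958). Its high clones had 1062 to 1190 TPM against 723 to 799 TPM in the first set, and 417 to 596 against 333 to 479 TPM in the second, where clone 18 overlapped the low clones. Of 12 measured genes of heparin and chondroitin synthesis, 5 were higher at an unadjusted p under 0.05 (41.7%), namely Ndst2, Ext2, Hs2st1, Hs6st1 and Chst11, with differences from 0.37 to 1.83, and Chsy1 differed by -0.11. Fitted alone, each set had 2 of the 12 at that level. The same direction in both sets was seen for 8 of 12, no larger a share than among all genes tested (68.6%).

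Receptors for growth factors and cytokines were next. Il1rl1, the IL-33 receptor, was 1.57 log2 units higher (SE 0.35, adjusted p = 0.109), with 6.79 to 11.4 TPM in the high and 1.11 to 2.51 TPM in the low clones of the first set. Among the later clones it was 12.1 TPM in clone 19, 0.294 to 1.10 TPM in the other high clones and 0.0559 to 0.119 TPM in the low clones. Its partner chain Il1rap did not depend on clone 19 in this way: clones 17, 18, 19 and 22 had 7.98, 7.12, 6.17 and 1.88 TPM and the low clones had 0.688 to 2.15 TPM. The Il1rap difference was 1.30 (SE 0.22, adjusted p = 0.0738). Kit was 0.47 higher (SE 0.16, adjusted p = 0.446). Of 13 cytokine receptors 4 were higher at an unadjusted p under 0.05: the shared beta chains Csf2rb and Csf2rb2, near-identical copies whose split is uncertain (0.60 and 1.12), Il3ra, and Crlf2, the TSLP receptor (0.37). Csf3r and Csf2ra, the G-CSF receptor and the GM-CSF receptor alpha chain, differed by -0.10 and -0.11.

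Stem cell and megakaryocyte genes are background lists for the origin of mast cells. Itga2b, the integrin CD41 of megakaryocytes, early progenitors and mast cell progenitors, stood at 106 ± 35.8 against 39.8 ± 20.3 TPM, a difference of 1.51 (SE 0.31, adjusted p = 0.0947). In the first set high clones had 80.8 to 136 TPM and low clones 20.3 to 51.6 TPM, and in the second 70.0 to 174 against 17.2 to 72.5 TPM. Pf4, platelet factor 4, was 0.87 higher (142 ± 113 against 77.0 ± 70.6 TPM, adjusted p = 0.622) and Car2, carbonic anhydrase, 0.07 higher. Of 12 measured erythroid and megakaryocyte genes 2 had an unadjusted p under 0.05, Itga2b and the mucin Muc13. Among 14 stem and progenitor genes 4 were higher at that level: Hlf, a factor of stem cells (169 ± 46.0 against 98.5 ± 56.2 TPM, difference 0.92), Ctla2a (0.77), Lmo4 (0.73) and Procr (0.75), while Cd34 differed by 0.12. Cell cycle genes had a median of 0.07, with 0 of 23 at an unadjusted p under 0.05 in either direction. Carboxypeptidases other than Cpa3 had a median of 0.18 and 0 of 6 at that level.

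Differences were negative for 7 of 9 primary granule, 14 of 14 neutrophil and 12 of 13 classical monocyte genes. In each list 1 gene was lower at an unadjusted p under 0.05 in limma, against 0.543% of all genes tested. Among the primary granule genes 1 was also higher at that level, against 7.82% of all genes. Of all 10679 genes tested, 2006 had negative differences. Irf8, a factor of monocytes and dendritic cells, was 0.94 log2 units lower (3.14 ± 1.21 against 7.59 ± 4.72 TPM, adjusted p = 0.286). Mmp8, the neutrophil collagenase, was at 2.96 ± 1.94 against 8.42 ± 7.18 TPM (difference -1.17, adjusted p = 0.389), and Hp, haptoglobin, at 3.42 ± 2.66 against 17.8 ± 32.2 TPM (-1.27, adjusted p = 0.581). A single low clone, 20, held 97.0 TPM of Hp. Medians were -0.52 for 14 secondary granule and neutrophil genes, -0.49 for 13 classical monocyte genes and -0.46 for 9 primary granule genes. In the neutrophil list the sign turned between sets, 0.68 in the first and -1.98 in the second. S100a8, a calprotectin subunit, had 36.1 ± 47.9 TPM in high and 474 ± 1225 TPM in low libraries (difference -0.49, adjusted p = 0.889). Clone 20 alone held 3502 TPM of it, and the difference turned to 0.68 without that clone and to between 0.00099 and 0.05 without clone 15, 17 or 22. Mpo, myeloperoxidase, had 1310 ± 649 and 1446 ± 615 TPM (adjusted p = 0.648). High Irf8 also stood beside mast cell transcripts in 1 clone, chosen after its values were seen. The middle clone 1 had 17.4 TPM of Irf8 together with 410 TPM of Mcpt8, 151 TPM of Cma1 and 44.2 TPM of Ms4a2.

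The sets of clones were then fitted alone. In clones 1 to 13, 23 genes passed at an adjusted p under 0.05 (0.215%), all higher (620 genes, 5.81%, were higher and 59, 0.552%, lower at an unadjusted p under 0.05), and 10 of them were among the 61 mast cell and basophil genes: Ms4a2, Tpsg1, Cma1, Il1rl1, Gata1, Alox5, Tpsb2, Srgn, Cd200r3 and Mcpt8. In clones 15 to 26 no gene passed in limma (0 of 10679), with 230 higher (2.15%) and 65 lower (0.609%) at an unadjusted p under 0.05. Of the 23 genes, 21 had the same direction in the second set and 1, Ms4a2, an unadjusted p under 0.05 there. For comparison, 541 of the 679 genes with an unadjusted p under 0.05 in clones 1 to 13 had the same direction in the second set (79.7%), as did 68.6% of all genes tested. Whether the difference between high and low differed between the sets was itself tested in limma, and 0 of 10679 genes passed (smallest adjusted p 0.503). At an unadjusted p under 0.05 there were 202 genes (1.89%). These data thus do not show that the difference between high and low differs between the sets. Leaving clone 19 out of the second set took the difference from 2.0 to 0.39 for Cma1, from 1.05 to 0.33 for Mcpt8, from 1.34 to 0.60 for Il1rl1, from 1.89 to 1.02 for Ms4a2 and from 2.30 to 1.38 for Prss34. It left Gata2 at 1.05 (from 1.02), Hdc at 1.51 (from 1.27) and Srgn at 0.24 (from 0.31).

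**Figure D4:**
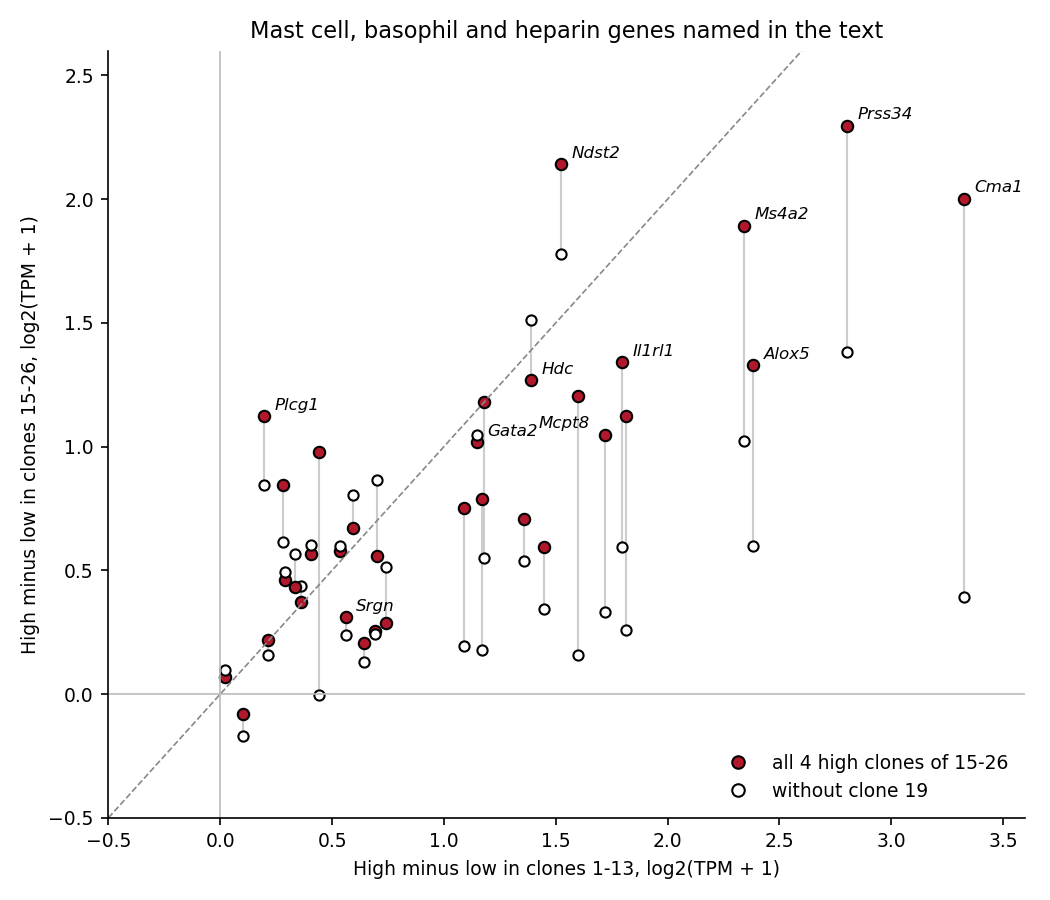
High minus low in clones 1 to 13 (x axis) against clones 15 to 26 (y axis), log2(TPM + 1), for part of the mast cell, basophil and heparin genes of the text, filled with all clones and open without clone 19. Ifitm1, Lilr4b, Cd69, Prss57, Ltc4s and Chsy1, which the text gives with negative differences, are not drawn, nor is Lyl1, with a positive one. The line of equality is dashed. Leaving out clone 19 lowers Cma1 from 2.0 to 0.39 while Gata2 stays near 1.

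The grouping uses 16 clones, and a slope on the Cpa3 level uses all 22 ranked ones. With limma and set as a covariate, 161 genes rose with log2 Cpa3 (1.51%) and 21 fell (0.197%) at an adjusted p under 0.05. Of the mast cell and basophil genes, 8 of 61 rose and none fell: Prss34 (slope 1.58 per log2 unit of Cpa3, adjusted p = 0.0247), Hdc (1.07, 0.00514), Gata2 (0.73, 0.00299), Hgf (0.61, 0.00652), Slc18a2 (0.61, 0.0109), Tal1 (0.47, 0.00774), Stat5a (0.43, 0.0247) and Srgn (0.25, 0.0247). Ndst2 (1.08, 0.00299), the sulfotransferase Hs2st1, Itga2b, Hlf, Ctla2a, Angpt1 and Lmo4 rose as well. Ms4a2 (1.11, adjusted p = 0.0594), Cma1 (1.51, 0.0914) and Mcpt8 (0.72, 0.118) did not pass. Among the 21 that fell were Tmsb4x, thymosin beta 4 (-0.40, adjusted p = 0.00294), Gapt (-0.80, 0.00299), the surface protein Cd52 (-0.79, 0.00628), Cfp, properdin (-0.81, 0.0105), the adaptor Tyrobp (-0.35, 0.0248) and Hp (-1.20, 0.0372), chosen for mention after their values were seen. All 182 slopes kept their direction without clones 13 and 20, the lowest of each set, but 0 then passed (smallest adjusted p 0.0506), and without clone 20 alone 32 rose and 1 fell. Without clone 7 or 19 the counts grew to 443 and 473 genes that rose. Clones 1 to 13 alone gave 45 that rose and 1 that fell, and clones 15 to 26 alone gave 0.

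Likeness to Cpa3 was ranked over the 22 progenitor libraries, after centring each set, among genes with a mean of at least 5 TPM. Pearson's r was 0.894 for Fam129a (Niban), 0.872 for the ethanolamine kinase Etnk1, 0.859 for Cd200r4, 0.832 for Tmem251, 0.817 for the transporter Slc45a3 and 0.810 for the potassium channel subunit Kcne3. Below that level Rnd2 (0.864), Nabp1 (0.845) and Psd3 (0.840), chosen after their values were seen, also had high r. These are descriptions over libraries that share set and culture. Fam129a had 9.69 to 18.7 TPM in the high and 1.03 to 4.87 TPM in the low clones of the first set. Over clones 15 to 26 its high and low clones overlapped, with 11.3 to 24.8 TPM in high clones. The low clones 20, 26, 15 and 23 had 1.05, 4.17, 15.2 and 21.1 TPM. The 3 measured neighbours of Cpa3 within 500 kb, Gyg, Hltf and Hps3, differed by 0.11, 0.17 and 0.07 (adjusted p = 0.717, 0.641 and 0.826), and the adjacent carboxypeptidase gene Cpb1 was at most 0.193 TPM.

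Monocyte cultures of the same 16 clones were not used for the ranking, so Cpa3 could be tested there. It stood at 92.2 ± 128 TPM in clones of the high group and 30.5 ± 56.3 TPM in clones of the low group (SD, n = 8 each), a difference of 2.41 log2 units (p = 0.0522, exact permutation within sets, 4900 permutations, two-sided). The p fell below 0.05 when clone 2, 11, 13 or 17 was left out. The sets are given apart. In clones 15 to 26 the high clones 17, 18, 19 and 22 kept 17.6, 23, 353 and 57.4 TPM and the low clones 15, 20, 23 and 26 had 2.32, 0.0630, 4.01 and 0.152 TPM, a difference of 4.70 with no overlap (exact p = 0.0286, the smallest that 70 permutations give). In clones 1 to 13 the high clones 2, 5, 6 and 7 had 5.81, 228, 35.1 and 17.6 TPM and the low clones 3, 10, 11 and 13 had 3.48, 16.9, 162 and 54.9 TPM, a difference of 0.13 (exact p = 0.943). The difference between sets was 4.57 and did not pass in limma (adjusted p = 0.454).

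Across all genes of the monocyte cultures, limma called 0 of 10773 (smallest adjusted p 0.828), with 519 higher (4.82%) and 57 lower (0.529%) at an unadjusted p under 0.05. Of 64 measured mast cell and basophil genes 8 were higher and 1 lower at that level, among them Prss34 (43.5 ± 53.1 against 5.48 ± 9.70 TPM, difference 2.94), Mcpt8 (2.91) and Kit (1.17). Primary granule genes had 6 of 9 and cell cycle genes 14 of 23 at that level, all higher. The medians of the lists were 4.80 and 1.61 in clones 15 to 26, against -0.57 and 0.02 in clones 1 to 13. Mpo shows this clone by clone. Its monocyte level was 1974, 493, 2861 and 4796 TPM in the high clones 17, 18, 19 and 22 and 2.70, 12.1, 183 and 7.0 TPM in the low clones 15, 20, 23 and 26. In the first set it was 267, 93.0, 318 and 463 TPM in high clones 2, 5, 6 and 7 and 678, 181, 759 and 361 TPM in low clones 3, 10, 11 and 13. Elane, neutrophil elastase, had 148 to 984 TPM in the high and 2.91 to 51.4 TPM in the low monocytes of the second set. The difference between sets passed in limma for 2 of 10773 genes (0.0186%), Nkg7, a granule protein, and the gene model Gm8203. For Mpo, Elane and Prtn3, proteinase 3, it did not pass (adjusted p = 0.103, 0.124 and 0.0914).

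**Figure D5:**
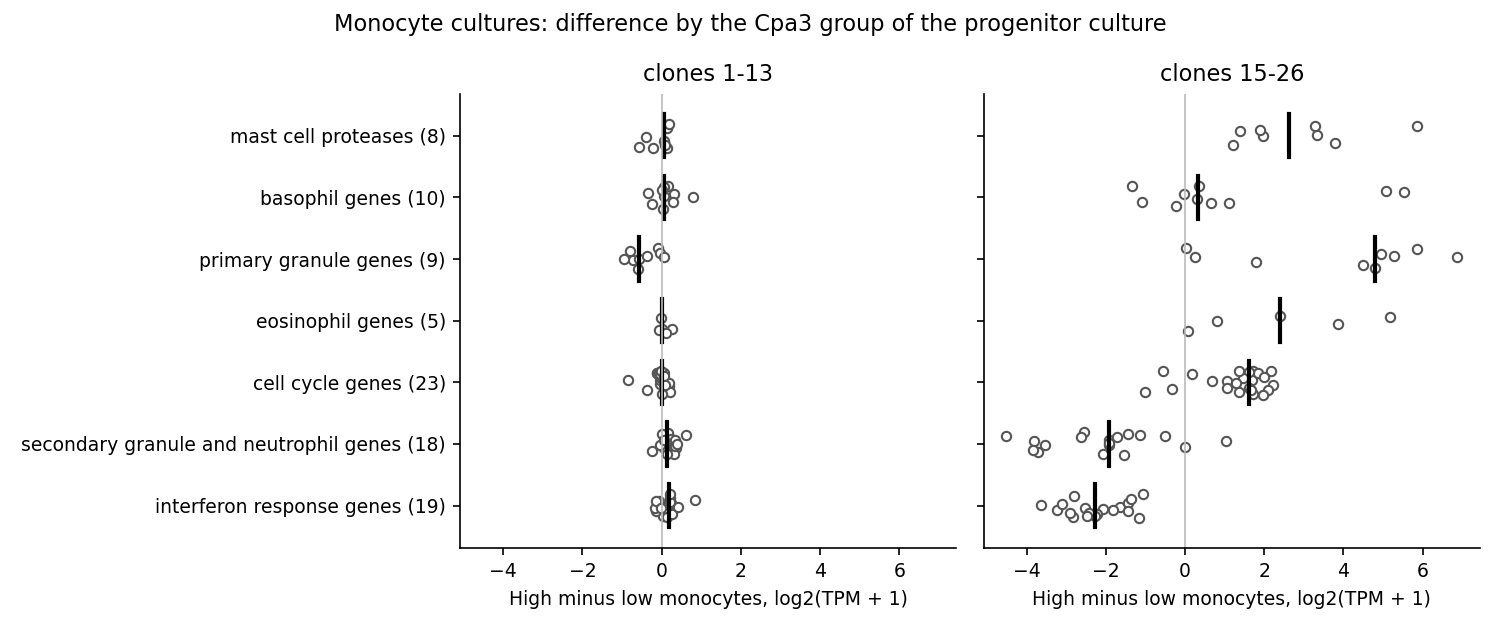
Monocyte cultures, difference between clones of the high and low progenitor group (x axis, log2(TPM + 1)), 1 point per gene with a bar at the list's median, left for clones 1 to 13 and right for clones 15 to 26. Primary granule genes have medians of -0.57 and 4.80 and cell cycle genes of 0.02 and 1.61.

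Mitochondrial transcripts took 10.5 to 19.2% of TPM in the 4 high and 1.98 to 25.1% in the 4 low monocyte libraries of that set, and their part in these differences was not tested. The difference between high and low was also compared between the states, with clone as a block. Here 0 of 11058 genes passed in limma (smallest adjusted p 0.763), and 547 (4.95%) had an unadjusted p under 0.05. Ndst2 was 1.83 higher in progenitors and 0.43 higher in monocytes, Alox5 1.86 and 0.56, and Gata2 1.08 and 0.91, so for none of them was a difference between the states shown.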

How the data were processed

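RNA-seq of 24 clones gave 1 library per clone and state. The deposited values are TPM that the authors made with Salmon on mm10, per the submitters' processing notes, so depth is unknown. The annotation and the step from transcripts to genes: not given in the sources used here. Of 34643 rows, 26 whose names had turned into dates were dropped. Genes with a mean of at least 1 TPM over the 22 ranked progenitor libraries, without Cpa3, were tested on log2(TPM + 1) with limma 3.58.1 (R 4.3.3, mean-variance trend, set as covariate, Benjamini-Hochberg over all genes, threshold 0.05, two-sided). Differences on this scale understate the change of low genes. Single values had exact permutation tests (scipy 1.17.1, Python 3.11.15). Clones 21 and 24 were not ranked: progenitor library 21 listed 23247 genes at 0, and library 24 had 8240 genes at 1 TPM or more. The sets of clones 1 to 13 and 15 to 26 are not named by the labels. Members and lists were chosen with earlier results of these data known.

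The rule for named genes took, per direction, the 10 largest changes past the threshold (none passed), in each list up to 3 passing genes or else the 2 with the highest mean TPM, all measured genes of the mast cell and basophil lists, Hoxb8 and Esr1, the 6 genes most like Cpa3 and its neighbours within 500 kb. Other names were chosen after their values were seen. A simulation of the high against low fit with 10679 genes recovered 38% of genes at a change of 0.5 log2, 82% at 1 and 100% at 2 and at 3, with 13 false calls. It changed 200 genes, 50 at each size, with independent normal noise at the residual SD of each gene. Noise shared between genes or clones was not simulated, so these shares may not hold for the data, where Cma1 (2.66 higher) did not pass.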

Additional observations from a re-analysis of the deposited data

Results flagged for a closer look

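Within groups of clones, 8 values stood far from the rest of their group, out of 70 groups examined, and chance alone marks about 1 in 20. In high progenitors of clones 1 to 13, Gata1 was 7.38 TPM in clone 5. Clone 19 accounted for 5 of the 8, with Ms4a2 at 42.3 TPM, Mcpt8 at 523 TPM, Prss34 at 114 TPM, Cma1 at 123 TPM and Il1rl1 at 12.1 TPM among the high progenitors of clones 15 to 26. In low progenitors of clones 1 to 13, Kit stood at 44.5 TPM in clone 3. Among the 8 monocyte cultures of low clones, Cpa3 stood at 162 TPM in clone 11.

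In monocyte cultures the difference between high and low itself differed between the sets in limma for Gm8203, by -6.03 log2 units (adjusted p = 3.81e-07), and for Nkg7, by 5.76 (adjusted p = 0.0125).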

How the results depend on the processing

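Among the 16 progenitors, 0 to 13 genes passed as higher when 1 clone was left out, and 2 with 3 clones per end of each set. The slope over 22 clones gave 161 positive and 21 negative genes. The slope counts were 107 and 11 with a mean of at least 5 TPM, 42 and 9 without the set covariate, 61 and 12 with clones 21 and 24, 45 and 1 in clones 1 to 13, 0 and 0 in clones 15 to 26, and 0 and 0 without clones 13 and 20. After rescaling, 44 were negative. Leaving out 1 clone gave 32 (without clone 20) to 473 (without clone 19) positive and 1 (clone 20) to 39 (clone 7) negative genes. The slope alternatives were chosen after seeing the data. The difference between sets passed for 1 gene at a pseudocount of 5 and for 0 to 2 with a clone left out, 2 without clone 19. The Cpa3 difference in monocytes was 3.11 (exact p = 0.0380) at a pseudocount of 0.1 and 1.94 to 2.83 with a clone left out.

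The sign turned for Fcer1g after rescaling (-0.0313), in the slope (-0.0049) and over clones left out (-0.0336 to 0.0974), for Ctsg with clones 21 and 24 ranked (-0.0073), for S100a8 over clones left out (-1.10 to 0.68, the latter without clone 20) and for Hps3 in the slope (-0.0182) and over clones left out (-0.0338 to 0.134). The difference between high and low differed between states for 0 genes with clone as the replicate block and for 0 without the block. Counts over the alternatives cover most named progenitor genes, but not Lmo2, Tfec, Ifitm1, Prss57 and some others. They gave 2018 repeats on the same side of the threshold, 53 newly past it and 16 with the sign turned. The slope over 22 clones was 1 of these alternatives, so the 53 include genes already given as passing in that slope. The slopes themselves gave 846 repeats on the same side and 235 no longer past it. The cause of these changes was not tested. Depth is unknown, so counting error at low TPM was not estimated.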
